A study of Mus musculus with 10 samples.

Results

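The interleukins and their receptors were examined in mouse intestinal organoids, which are epithelial structures grown in culture from gut tissue. The genes were chosen by name: every symbol on the array that begins with Il followed by a digit. This gave 76 genes of the 19505 on the array, 38 of ligands or soluble antagonists and 38 of receptors or binding proteins, each with 1 probe set (the group of array oligonucleotides that reads 1 gene). 5 organoid samples were knockout (KO) for IκBα, the product of Nfkbia, and 5 were wild type (WT); RNA of each was measured on its own array. IκBα holds NF-kB transcription factors outside the nucleus. Every sample carries the mark P6, whose meaning is not stated. The kind of deletion, mouse strain, culture medium and any added cytokine are not stated in the labels either, and nothing in the labels tells separate animals or cultures from repeat preparations. P-values thus rest on sample-to-sample spread that could be wholly technical.

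Interleukins are signalling proteins passed between immune cells and the cells of a tissue. Those of the IL-1 and IL-17 families signal through the adaptors MyD88 or Act1 to NF-kB, and most of the others act through JAK kinases and STAT factors. In the gut, epithelial cells release alarm cytokines of the IL-1 family and carry receptors for IL-17, IL-22, IL-4 and IL-13, which lymphoid cells make during defence and repair. An IL-1 type receptor needs a binding chain and an accessory chain to signal, and antagonists and decoy receptors hold the signal back.

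The KO samples had more transcript of a set of IL-1 family genes above all: the antagonist Il1rn, the receptor Il1r1, the alarm cytokine Il1a and the IL-36 cytokines Il1f6 and Il1f9 were higher in KO, whereas the shared accessory chain Il1rap was lower. The IL-17C receptor chain Il17re, the cytokines Il23a, Il24, Il7, Il33 and Il34, and the signalling chain Il6st were higher as well. Of the 76 genes, 20 (26.3%) were higher in KO, read beside 15.0% of all 19505 genes, and 2 (2.63%) were lower, read beside 11.8% of all genes (limma, adjusted p under 0.05, hereafter called). The other 54 were not called. The groups were fully separated, with KO on top, in 17 of the 76 genes, or 22.4% beside 12.4% of all genes. Full separation with KO underneath held for 1 gene, Il1rap, or 1.32% beside 9.08% of all genes. The median change over the 76 genes was 0.08 and over all genes -0.01; every level is log2 RMA signal, and every change is KO minus WT on that scale. Called and over 2-fold higher in KO were 14 of the 76 genes, beside 1300 of all 19505 genes. Called and over 2-fold lower was 1 of the 76, beside 951 of all 19505. The 20 higher genes were 10 ligands and 10 receptors, and both lower genes were receptors.

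**Figure D1:**
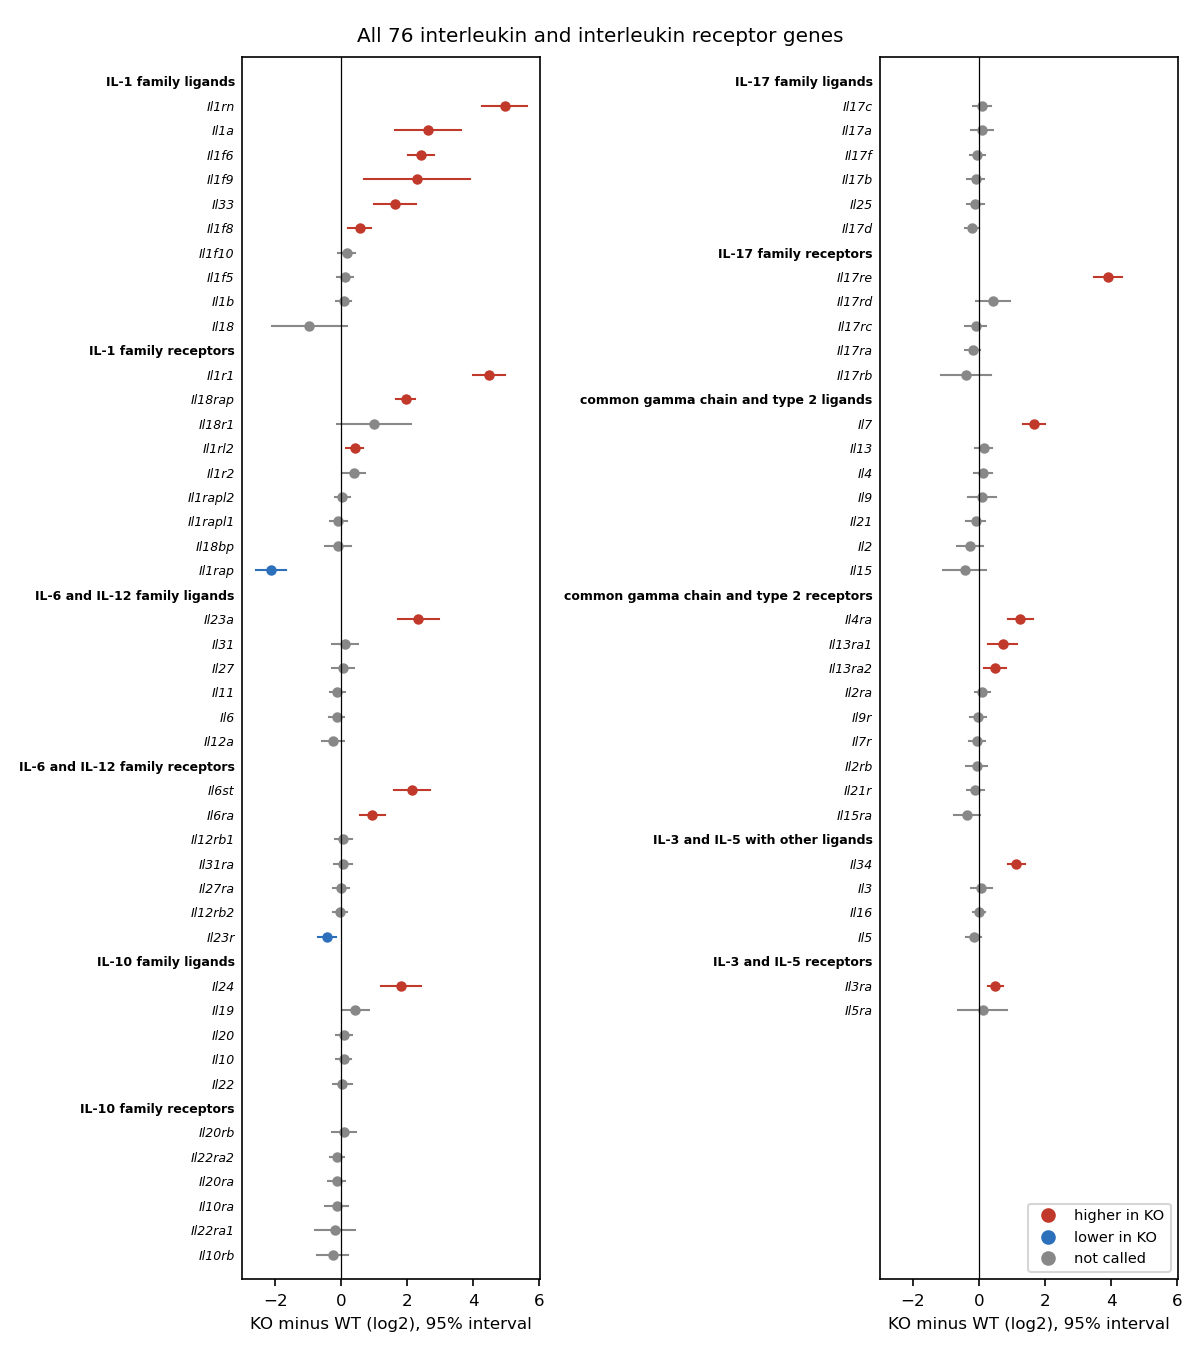
Change in each of the 76 genes, grouped by family and by ligand or receptor. The x axis is KO minus WT (log2), points are fitted changes and bars are 95% intervals. Points of called genes are red where higher in KO and blue where lower, and 6 of the 10 IL-1 family ligands are red.

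Levels of 2 kinds mark the floor of the measurement. The median of the 5222 negative control probe sets was 4.30 to 5.10 in the 10 arrays and their 95th percentile was 7.17 to 7.77. Against the 95th percentile of each array, 56 of the 76 genes were above it in 0 arrays and 5 in all 10. Among the called genes, Il1rap, Il24, Il7, Il6ra, Il1f8, Il13ra2, Il1rl2 and Il23r passed it in 0 arrays. Their levels thus stayed within the spread of the negative controls. 36 of the 76 genes had a WT mean no higher than 5.10, and 28 had both group means there. For 10 of the 20 higher genes the WT mean lay at that floor. In Il1r1, Il1a, Il1f6, Il1f9, Il23a, Il24 and Il7 the KO mean was above it, so the floor makes the fitted sizes of their changes lower bounds. A lower bound, here and below, refers to the floor alone and leaves sampling error aside. In Il1f8, Il13ra2 and Il1rl2, as in the lower gene Il23r, both means were at the floor, and the size of the change is not known. Levels of different genes come from different probes and were not set against each other.

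The labels were checked with the targeted gene. Nfkbia averaged 5.06 ± 0.31 in KO and 9.19 ± 0.38 in WT (SD, n = 5 each), a change of -4.13 (limma, adjusted p = 2.81e-08). The KO mean was at the floor, so its size is a lower bound. All 9 epithelial markers examined lay above the negative controls' 95th percentile in every array. Of them 3 were higher in KO (Krt18 by 1.43, Cdh1 by 0.45 and Krt8 by 0.43) and 4 lower (Cdx2 by -2.16, Vil1 by -1.03, Cdh17 by -0.68 and Lgals4 by -0.61), and Epcam and Krt19 were not called (limma). The Y-linked genes Eif2s3y (-5.20), Uty (-4.47) and Kdm5d (-2.42), whose KO means were also at the floor, were lower in KO, so the sex of the source animals and the genotype cannot be told apart. Labelling and hybridisation control probe sets, which read no mouse gene, also differed: the median change of 8 such probe sets was -0.52, with a range from -0.85 to -0.10. The called changes of Il23r, Il1rl2, Il13ra2, Il3ra, Il1f8 and Il13ra1 were no larger in size than the greatest of these control differences. Pearson's r over probe sets, which are not independent replicates, ran from 0.965 to 0.987 within KO and 0.963 to 0.990 within WT, and from 0.885 to 0.929 for arrays of unlike genotype.

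Promoter sequence was available for 59 of the 76 genes in RefSeq (GRCm38.p6), as windows from 250 bases before to 50 bases after an annotated start. These windows were searched on both strands for the NF-kB consensus, the site of the factors that IκBα restrains, and for the AP-1 site TGAGTCA, the site of a factor family that often acts beside NF-kB at cytokine genes. Over all 32851 promoter windows, 4.51% held the NF-kB consensus and 5.2% the AP-1 site. At the level of genes, 5.14% of all genes with a window held the NF-kB consensus and 5.95% the AP-1 site. The NF-kB consensus was found in 7 of the 59 interleukin genes, 2 of the 15 higher ones (Il1r1 and Il4ra) and 5 of the 42 uncalled ones. The AP-1 site was found in 12 of the 59, 4 of the 15 higher ones (Il1rn, Il1a, Il1f8 and Il13ra2) and 8 of the 42 uncalled ones. The higher genes Il1rn, Il1a, Il1r1 and Il4ra are printed because they had a match and were over 2-fold higher in KO, and Il6 as an example of the uncalled genes Il6 and Il16, whose windows held both motifs. Capitals mark the matches, and positions count from the annotated start. In Il1rn the AP-1 match begins at position -141, in Il1a at -12 and in Il6 at -249. The NF-kB match begins at -232 in Il1r1, at 21 in Il4ra and at -44 in Il6. These matches are letters in a window, not bound sites. A gene counted as matched if any of its windows held the motif. Il1rn and Il1r1 also have windows at other annotated starts, not printed, that held neither motif.
Il1rn (GRCm38.p6, chr2:24336610-24336909, plus strand): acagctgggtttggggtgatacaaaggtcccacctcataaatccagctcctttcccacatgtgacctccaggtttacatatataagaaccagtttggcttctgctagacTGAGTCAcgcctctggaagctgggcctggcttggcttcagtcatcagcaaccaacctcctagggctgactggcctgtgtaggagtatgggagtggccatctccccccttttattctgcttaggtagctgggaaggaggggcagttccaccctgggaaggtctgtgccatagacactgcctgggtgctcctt
Il1a (GRCm38.p6, chr2:129309923-129310222, minus strand): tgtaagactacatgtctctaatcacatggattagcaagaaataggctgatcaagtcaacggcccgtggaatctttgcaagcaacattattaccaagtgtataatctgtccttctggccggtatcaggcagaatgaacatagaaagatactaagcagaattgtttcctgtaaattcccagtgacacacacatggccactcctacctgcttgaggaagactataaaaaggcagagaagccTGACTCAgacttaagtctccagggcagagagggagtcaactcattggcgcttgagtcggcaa
Il1r1 (GRCm38.p6, chr1:40266336-40266635, plus strand): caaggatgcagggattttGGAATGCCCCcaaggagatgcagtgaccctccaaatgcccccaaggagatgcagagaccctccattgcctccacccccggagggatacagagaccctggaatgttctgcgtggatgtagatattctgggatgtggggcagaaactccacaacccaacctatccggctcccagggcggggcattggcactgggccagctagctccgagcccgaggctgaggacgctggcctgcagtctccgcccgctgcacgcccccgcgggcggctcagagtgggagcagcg
Il4ra (GRCm38.p6, chr7:125552021-125552320, plus strand): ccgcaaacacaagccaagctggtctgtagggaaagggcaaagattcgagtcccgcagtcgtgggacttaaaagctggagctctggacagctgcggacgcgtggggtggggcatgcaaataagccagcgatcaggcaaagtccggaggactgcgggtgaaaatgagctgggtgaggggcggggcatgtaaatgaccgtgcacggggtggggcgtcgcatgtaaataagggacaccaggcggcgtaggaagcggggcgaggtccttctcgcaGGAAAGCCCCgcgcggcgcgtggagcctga
Il6 (GRCm38.p6, chr5:30012864-30013163, plus strand): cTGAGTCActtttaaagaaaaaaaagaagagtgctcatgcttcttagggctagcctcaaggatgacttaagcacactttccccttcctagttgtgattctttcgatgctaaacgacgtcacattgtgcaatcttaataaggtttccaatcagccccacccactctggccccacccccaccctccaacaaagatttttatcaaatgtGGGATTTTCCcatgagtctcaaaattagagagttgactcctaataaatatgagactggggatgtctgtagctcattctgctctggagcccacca

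The IL-1 family ligands had the most calls of any family. 6 of the 10 were higher in KO and 0 were lower, with a median change of 1.10. Il1rn encodes the IL-1 receptor antagonist, which occupies the IL-1 receptor without signalling. Its level was 10.74, 10.62, 10.29, 10.73 and 10.48 in the KO arrays, against 5.43, 5.96, 5.26, 4.72 and 6.74 in the WT arrays. The highest WT array stayed more than 3 log2 units below the lowest KO array. At 4.95 ± 0.30 (SE), or 30.9-fold, this was the highest change of the 76 genes (limma, adjusted p = 2.28e-07).

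Il1a encodes IL-1α, an alarm cytokine that epithelial cells hold ready and release on damage. It stood at 7.46, 8.72, 7.23, 6.78 and 5.41 in KO, against 4.37, 4.53, 4.45, 4.26 and 4.85 in WT. The groups did not overlap, but the KO arrays spread over more than 3 log2 units while WT stayed near the floor. Its change was 2.63 ± 0.46 (SE; limma, adjusted p = 0.00113). Il1b, which encodes IL-1β, the form made mainly by macrophages and its neighbour on the chromosome, averaged 4.82 ± 0.14 in KO and 4.74 ± 0.14 in WT (SD, n = 5 each). Both means of Il1b were at the floor, and its change of 0.08 had a 95% interval from -0.15 to 0.31.

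The 3 agonists of the IL-36 receptor, which act at epithelial surfaces, were all called higher. Il1f6 (IL-36α) was 7.47, 6.69, 7.46, 7.18 and 6.65 in KO, against 4.84, 4.57, 4.64, 4.80 and 4.46 in WT. Its groups were well separated, with a change of 2.43 ± 0.18 (SE; limma, adjusted p = 1.10e-06). Il1f9 (IL-36γ) was 9.83, 7.29, 6.28, 5.29 and 5.08 in KO, against 4.31, 4.49, 4.66, 4.52 and 4.26 in WT. All KO arrays were above WT, but KO replicates 4 and 5 only narrowly, and KO replicate 1 stood far above the rest. The change of Il1f9 was 2.30 ± 0.73 (SE; limma, adjusted p = 0.0358). It was 1.54 without KO replicate 1, and the call was lost when KO replicate 2 or any WT array was left out (limma, adjusted p from 0.0576 to 0.0713). Il1f8 (IL-36β) was 4.33, 3.79, 4.12, 4.11 and 3.54 in KO, against 3.35, 3.68, 3.19, 3.45 and 3.40 in WT. Its groups overlapped at levels under the floor, and the change was 0.56 ± 0.16 (SE; limma, adjusted p = 0.0187). The IL-36 receptor antagonist Il1f5 and Il1f10, which encodes IL-38, were not called, with changes of 0.12 and 0.17.

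Il33 encodes an alarm cytokine of the nucleus that drives type 2 immunity, the response against worms and allergens. It was 7.29, 8.82, 9.14, 8.59 and 8.48 in KO, against 7.02, 6.96, 6.91, 6.72 and 6.54 in WT. KO replicate 1 was only just above WT and the other 4 KO arrays were well above it. The change was 1.63 ± 0.28 (SE; limma, adjusted p = 0.00107). Il18 encodes a cytokine that gut epithelium makes and that caspase-1 cuts to its active form. Il18 was 5.41, 4.88, 6.25, 7.06 and 7.14 in KO, against 7.73, 7.29, 5.84, 8.16 and 6.54 in WT. Both groups spread by more than 2 log2 units and overlapped, so the change of -0.96 had an interval from -2.09 to 0.17 (limma, adjusted p = 0.208).

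Among the 9 IL-1 family receptors and binding proteins, 3 were higher and 1 was lower in KO, and 5 were not called. Il1r1, the signalling receptor for IL-1α and IL-1β, was 9.78, 8.47, 9.39, 9.61 and 9.33 in KO, against 4.82, 5.19, 4.87, 4.77 and 4.58 in WT. The WT mean was at the floor and every KO array was more than 3 log2 units above every WT array. The change was 4.47 ± 0.22 (SE), or 22.2-fold with a 95% interval from 15.9 to 31.0 (limma, adjusted p = 3.39e-08). The decoy receptor Il1r2, which binds IL-1 without signalling, averaged 5.02 ± 0.15 in KO and 4.64 ± 0.32 in WT (SD, n = 5 each), a change of 0.38 that was not called (limma, adjusted p = 0.0948).

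Il1rap encodes the accessory chain that Il1r1, the IL-33 receptor and the IL-36 receptor share and need in order to signal. It was 4.43, 4.08, 4.69, 4.58 and 4.23 in KO, against 5.89, 6.73, 7.10, 6.29 and 6.66 in WT. Every KO array was at the floor and under every WT array. The change was -2.13 ± 0.21 (SE), or 4.38-fold lower with a 95% interval from 3.18 to 6.02 (limma, adjusted p = 1.27e-05). The floor makes this fitted size a lower bound. Il1rap held its call in all 21 alternative settings. The transcripts of the IL-1 binding chain and of its accessory chain therefore changed in opposite directions in the same 5 KO samples.

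Il18rap, the accessory chain of the IL-18 receptor, was 6.99, 7.26, 7.24, 6.75 and 7.29 in KO, against 5.43, 5.14, 4.92, 5.13 and 5.11 in WT. The spread inside each group was small beside the change of 1.96 ± 0.13 (SE; limma, adjusted p = 6.10e-07). Il18r1, the chain that binds IL-18, was 6.36, 6.18, 4.40, 3.75 and 3.48 in KO, against 3.86, 3.81, 3.89, 3.94 and 3.70 in WT. Only KO replicates 1, 2 and 3 were above WT, and the change of 0.99 (95% interval -0.13 to 2.12) was not called (limma, adjusted p = 0.191). Il1rl2, the receptor of the IL-36 cytokines, was 4.21, 4.40, 3.85, 4.13 and 3.91 in KO, against 3.61, 3.71, 3.63, 3.65 and 3.79 in WT. All these values are under the floor, and the change was 0.42 ± 0.12 (SE; limma, adjusted p = 0.0204). Il18bp, which soaks up IL-18, changed by -0.09 and was not called, and the receptor-like Il1rapl1 and Il1rapl2 changed by -0.08 and 0.04. Il1rl1, the IL-33 receptor, was not analysed here.

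**Figure D2:**
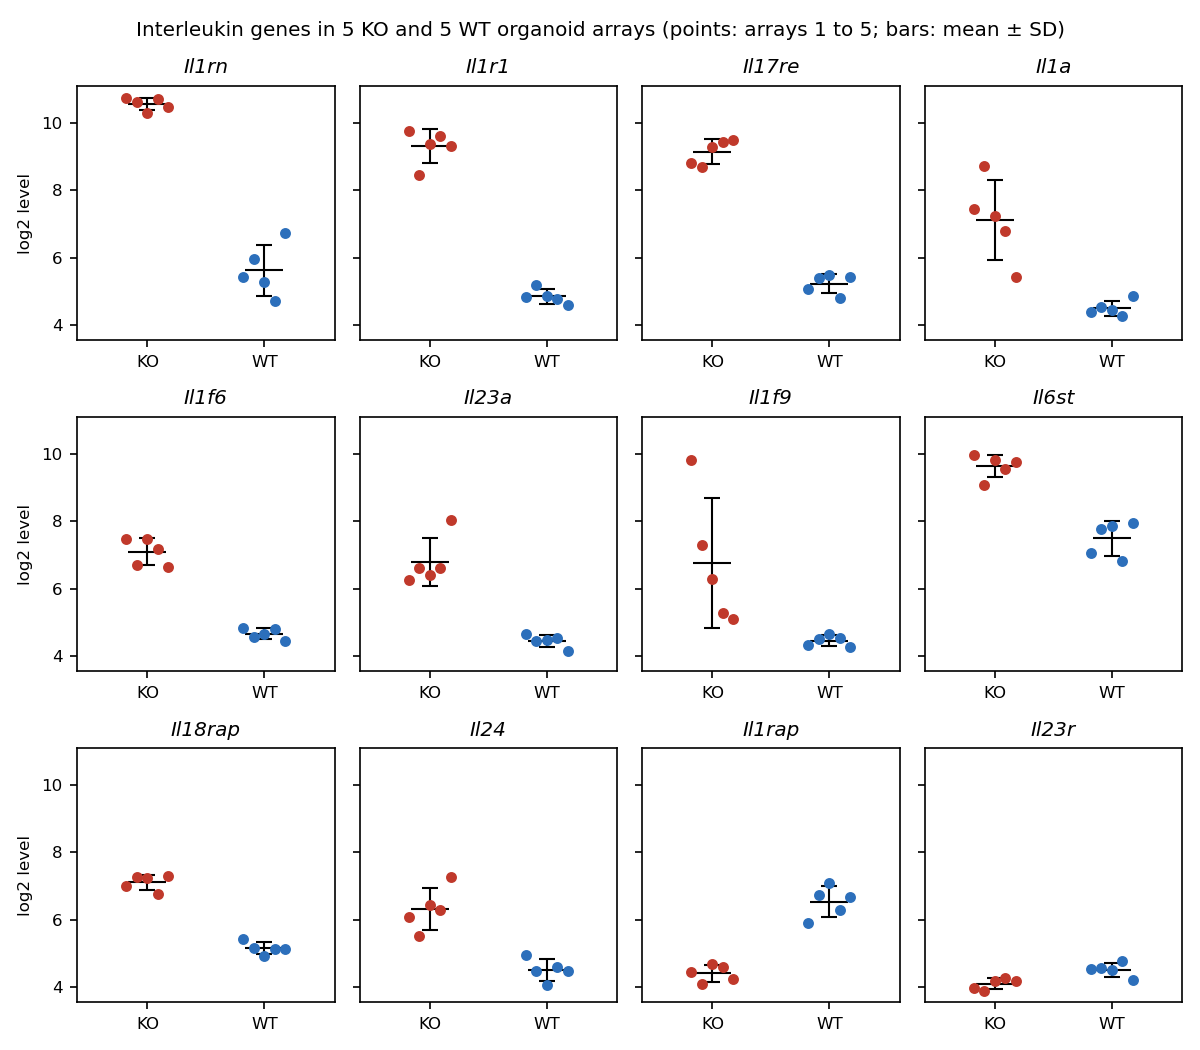
Levels of 12 interleukin genes in the 5 KO arrays (red, left) and the 5 WT arrays (blue, right) of each panel. The y axis is log2 level, points run from array 1 to array 5 and bars are mean ± SD; Il1rn sits above 10 in KO and below 7 in WT, Il1f9 spreads from 5.08 to 9.83 in KO, and Il1rap is the reverse case with all KO points below WT.

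In the IL-17 family, 0 of the 6 ligands and 1 of the 5 receptors was called (limma; of the ligands 0 had an unadjusted p under 0.05, and the lowest adjusted p was 0.149, that of Il17d). Il17re binds IL-17C, a cytokine that epithelial cells themselves make, and pairs with Il17ra. It was 8.80, 8.69, 9.29, 9.42 and 9.50 in KO, against 5.06, 5.39, 5.49, 4.79 and 5.41 in WT. The groups were separated by more than 3 log2 units, with a change of 3.91 ± 0.19 (SE), or 15.1-fold (limma, adjusted p = 3.32e-08). Its ligand Il17c averaged 6.65 ± 0.18 in KO and 6.54 ± 0.19 in WT (SD, n = 5 each), and its change of 0.11 (95% interval -0.17 to 0.38) was not called. The shared chain Il17ra changed by -0.18 (-0.42 to 0.05), and Il17rc, which with Il17ra receives IL-17A and IL-17F, by -0.10 (-0.41 to 0.22). The Il17rc arrays were bright in both groups, at 9.23 to 9.54 in KO and 9.13 to 9.88 in WT. The IL-25 receptor chain Il17rb (-0.39) and Il17rd (0.42) were not called either. Of the ligands, Il17a changed by 0.09 and Il25, the tuft cell cytokine, by -0.10.

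In the IL-6 and IL-12 families, 1 of 6 ligands was higher, and among 7 receptors 2 were higher and 1 lower. Il6st encodes gp130, the signalling chain shared by the receptors of IL-6, IL-11, LIF and oncostatin M. It was 9.97, 9.09, 9.82, 9.57 and 9.76 in KO, against 7.06, 7.78, 7.87, 6.82 and 7.96 in WT. The groups did not overlap and the change was 2.14 ± 0.24 (SE), or 4.41-fold (limma, adjusted p = 4.24e-05). Il6ra, the chain that binds IL-6, was 6.27, 6.45, 6.32, 6.28 and 6.84 in KO, against 5.68, 5.43, 5.30, 5.08 and 5.95 in WT. It too was higher in every KO array, by 0.94 ± 0.17 (SE; limma, adjusted p = 0.00153). The cytokine Il6 itself averaged 3.48 ± 0.13 in KO and 3.62 ± 0.10 in WT (SD, n = 5 each), under the floor in both, and Il11 changed by -0.12; neither was called. The receptors Il27ra (-0.00) and Il31ra (0.05) were not called, and Il11ra1 was not analysed here.

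Il23a encodes p19, the chain that makes IL-23 when joined to the product of Il12b, a gene not analysed here. It was 6.25, 6.61, 6.41, 6.62 and 8.02 in KO, against 4.64, 4.43, 4.47, 4.53 and 4.14 in WT. KO replicate 5 was well above the other KO arrays, and all 5 were above WT. The change was 2.34 ± 0.29 (SE; limma, adjusted p = 7.11e-05). Il23r, the chain that binds IL-23, was 3.97, 3.88, 4.16, 4.27 and 4.19 in KO, against 4.54, 4.56, 4.51, 4.76 and 4.19 in WT. These values overlapped under the floor; the change was -0.42 ± 0.12 (SE; limma, adjusted p = 0.0276). Leaving out any of KO replicates 1 and 2 and WT replicates 1, 2 and 4 ended that call (limma, adjusted p from 0.0506 to 0.0640). Il12a (-0.25), Il12rb1 (0.07) and Il12rb2 (-0.03) were not called.

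Of the 5 IL-10 family ligands 1 was higher in KO, and of the 6 receptors 0 were called in any direction (limma; 0 had an unadjusted p under 0.05, and adjusted p ran from 0.427 to 0.753). Il24, whose product acts on epithelia through the IL-20 receptors, was 6.09, 5.52, 6.43, 6.28 and 7.25 in KO, against 4.94, 4.48, 4.05, 4.59 and 4.47 in WT. KO was higher throughout, by 1.81 ± 0.28 (SE; limma, adjusted p = 0.000391). Il10, which encodes a cytokine that restrains inflammation, lies in the same gene cluster with Il20 and Il19 between. It changed by 0.07 and was not called. Il22, a lymphoid cytokine that acts on gut epithelium, averaged 5.40 ± 0.15 in KO and 5.36 ± 0.23 in WT (SD, n = 5 each), and its change was 0.03 (95% interval -0.25 to 0.32). The IL-22 receptor chain Il22ra1 was 9.20, 9.50, 9.17, 8.96 and 8.23 in KO, against 8.80, 9.34, 8.56, 9.55 and 9.76 in WT. It was bright in both groups and they overlapped, with a change of -0.19 (-0.78 to 0.41). Il10rb, the chain shared by the IL-10 and IL-22 receptors, averaged 9.56 ± 0.22 in KO and 9.82 ± 0.47 in WT (SD, n = 5 each), a change of -0.26 (-0.72 to 0.20). Il10ra (-0.14), Il20ra (-0.13), Il20rb (0.09) and the IL-22 decoy Il22ra2 (-0.12) were not called.

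Among the cytokines of the common gamma chain and the type 2 cytokines, Il7 alone of 7 ligands was called. Il7 supports lymphocytes and is made by epithelium and stroma. It was 5.11, 4.91, 5.74, 5.15 and 4.99 in KO, against 3.26, 3.59, 3.51, 3.50 and 3.70 in WT. All KO arrays were higher, by 1.67 ± 0.16 (SE; limma, adjusted p = 8.53e-06), from a WT level under the floor. Il15, which maintains lymphocytes inside the epithelium, changed by -0.43 (95% interval -1.09 to 0.23), and its presenting chain Il15ra by -0.37 (-0.77 to 0.02); neither was called. The receptors Il7r (-0.05), Il2ra (0.10) and Il2rb (-0.07) were not called. Il2rg, the common gamma chain itself, was not analysed here.

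All 3 chains that bind IL-4 or IL-13 were called higher. Il4ra, which is part of every IL-4 and of the signalling IL-13 receptor, was 9.40, 9.22, 9.06, 9.70 and 9.49 in KO, against 7.80, 8.05, 7.82, 8.57 and 8.35 in WT. The groups did not overlap, and the change was 1.25 ± 0.17 (SE), or 2.38-fold (limma, adjusted p = 0.000194). Il13ra1, its partner on epithelial cells, was 9.55, 9.47, 8.93, 9.93 and 9.93 in KO, against 8.87, 8.58, 8.65, 9.23 and 8.86 in WT. KO replicate 3 lay inside the WT range, and the change was 0.72 ± 0.20 (SE; limma, adjusted p = 0.0176). The decoy receptor Il13ra2 was 4.25, 4.14, 4.74, 4.39 and 3.98 in KO, against 3.64, 3.95, 4.03, 3.63 and 3.83 in WT. Its groups overlapped under the floor, with a change of 0.48 ± 0.15 (SE; limma, adjusted p = 0.0325). The call ended when any of KO replicates 1, 3 and 4 and WT replicates 1, 4 and 5 was left out (limma, adjusted p from 0.0522 to 0.0733). Il13ra1 and Il13ra2 are X-linked. Of the 798 X-linked genes, 97 (12.2%) were higher in KO, beside 15.0% of all genes. Of the same 798, 63 (7.89%) were lower, beside 11.8% of all genes. The ligands Il4 and Il13 changed by 0.13 and 0.14 and were not called.

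Among the remaining ligands, Il34 was higher in KO and Il16, Il3 and Il5 were not called. Il34, the second ligand of the CSF1 receptor, was 7.61, 7.48, 7.58, 7.82 and 7.32 in KO, against 6.34, 6.68, 6.34, 6.41 and 6.38 in WT. Both groups were tight and well apart, by 1.13 ± 0.12 (SE), or 2.19-fold (limma, adjusted p = 1.83e-05). Its receptor gene Csf1r averaged 6.87 ± 0.54 in KO and 5.35 ± 0.23 in WT (SD, n = 5 each), a change of 1.53 (limma, adjusted p = 0.000390). Il3ra was 8.14, 7.88, 7.96, 7.72 and 7.77 in KO, against 7.35, 7.50, 7.49, 7.27 and 7.39 in WT. The groups did not overlap but lay close, with a change of 0.49 ± 0.10 (SE; limma, adjusted p = 0.00420). Il5ra (0.12) and Il16 (-0.00) were not called.

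**Figure D3:**
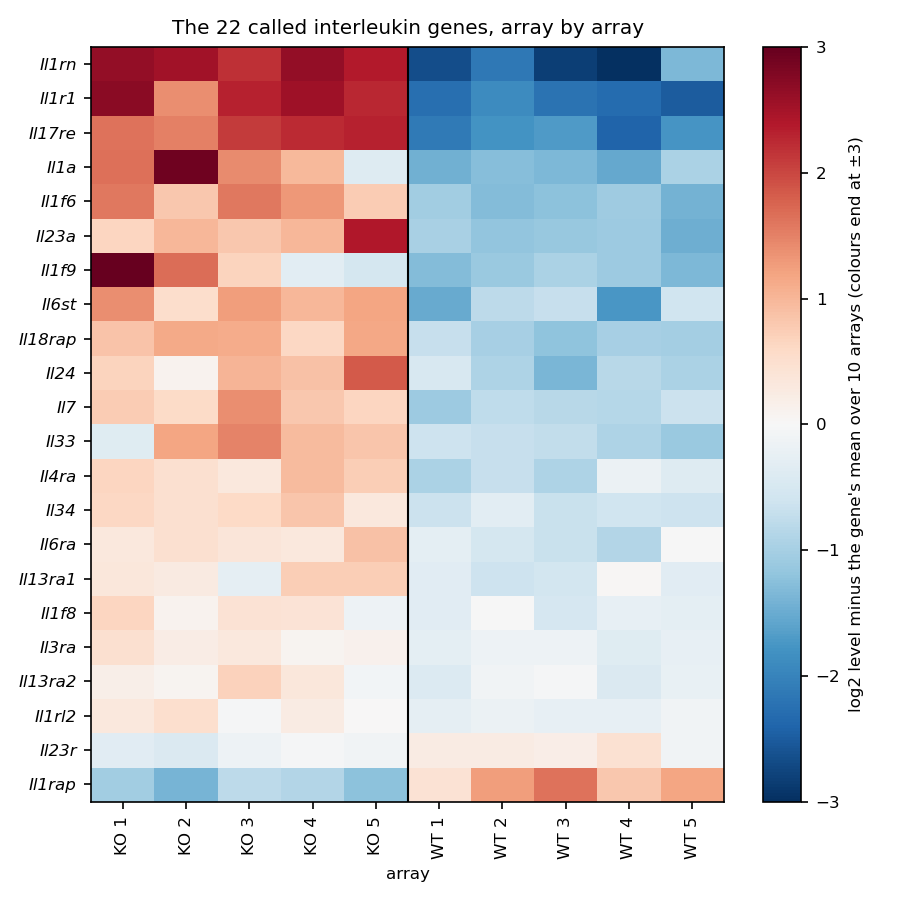
The 22 called genes in each array, as log2 level minus the mean of that gene over the 10 arrays; red is above and blue below that mean, colours end at 3 log2 units, and the KO columns stand left of the WT columns. From Il1rn to Il6ra most KO cells are red and WT cells blue, Il23r and Il1rap run the other way, and the KO columns of Il1a, Il1f9, Il23a and Il33 differ among themselves.

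Of the 54 genes not called, 52 changed by less than 0.5 in size, and for 50 the whole 95% interval lay within 1 log2 unit of no change. For 39 it lay within 0.5. Of the 28 genes with both means at the floor, all but Il1f8, Il13ra2, Il1rl2 and Il23r were among these 54. A narrow interval at the floor says little about the transcript. Il22, Il17a, Il13 and Il25 were also uncalled and were above the negative controls' 95th percentile in 0 arrays. The 2 uncalled genes with larger changes were Il18 and Il18r1, both of which spread widely.

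Several members lie side by side in RefSeq gene order, and neighbours did not always share a call. On chromosome 2, Il1f8, Il1f9, Il1f6, Il1f5, Il1f10 and Il1rn follow each other, with changes of 0.56, 2.30, 2.43, 0.12, 0.17 and 4.95. Il1f5 and Il1f10, which were not called, thus sit between Il1f6 and Il1rn, which were. On chromosome 1, Il1r2, Il1r1, Il1rl2, Il18r1 and Il18rap changed by 0.38, 4.47, 0.42, 0.99 and 1.96, with Il1rl1 between Il1rl2 and Il18r1 not analysed here. Il24 was higher, and Il20 (0.10), Il19 (0.43) and Il10 (0.07), which follow it in that order, were uncalled. Il1a was higher beside the uncalled Il1b, and Il17re beside the uncalled Il17rc. On chromosomes 13 and 7, Il6st (2.14) and Il4ra (1.25) stood beside the uncalled Il31ra (0.05) and Il21r (-0.11), and on chromosome 6 the lower Il23r beside the uncalled Il12rb2. In 5 other pairs of neighbours (Il17a and Il17f, Il22ra2 and Il20ra, Il4 and Il13, Il2ra and Il15ra, Il2 and Il21) neither gene was called. Neighbours have separate probe sets, and no test of neighbourhood was run.

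**Figure D4:**
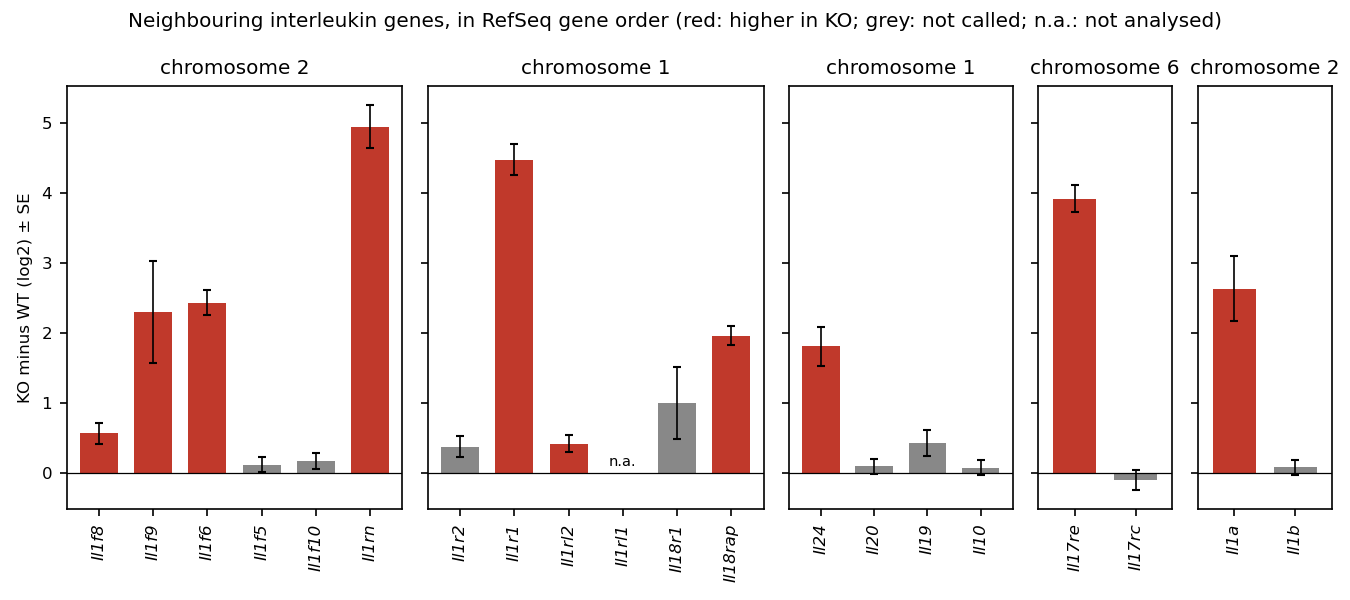
Changes of neighbouring interleukin genes in RefSeq order, with 1 panel for each cluster; bars are KO minus WT (log2) and whiskers ± SE. Red bars are called higher in KO and grey bars are not called; the tallest bar of each panel is red, and each panel also holds a grey bar, such as Il1r2 at 0.38 beside Il1r1 at 4.47.

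Genes that work with the interleukins but carry other names were read in 5 lists, whose counts stand beside 15.0% of all genes higher and 11.8% lower. Of 13 measured partner chains and ligands, 5 were higher in KO and 0 lower, with a median change of 0.28 beside -0.01 over all genes. Osmr, the oncostatin M receptor that pairs with gp130, averaged 7.76 ± 0.55 in KO and 5.13 ± 0.18 in WT (SD, n = 5 each), a change of 2.63 (limma, adjusted p = 4.57e-06). The gp130 ligands Clcf1 and Lif changed by 3.42 and 1.62, and the LIF receptor Lifr by 1.40 (limma, adjusted p of at most 0.000649). Other ligands or partners of gp130 in the list, Ctf1 (0.14), Cntfr (0.16) and Osm (-0.11), were not called. Ifnlr1 changed by 0.51, a call that ended without KO replicate 4 (limma, adjusted p = 0.0506) and with limma's treat at 1.2-fold.

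Few signal adaptors and kinases were called. Of 13 measured, 1 was higher and 1 lower, and the median change was 0.17 beside -0.01 over all genes. An unadjusted p under 0.05 was found for 6 of the 13 (limma), so a small count of calls does not show that the list was unchanged. Irak3, a brake on MyD88 signalling, was higher by 1.52 ± 0.23 (SE; limma, adjusted p = 0.000415). The kinase Jak2 fell by 0.52 (limma, adjusted p = 0.0335), a call that ended when any of KO replicates 1, 2, 3 and 5 and WT replicates 1 and 4 was left out. Tab3 (0.44) and Irak2 (0.59) were not called. The higher count was 3 without WT replicate 4, when both passed, and 4 with array weights.

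Most measured genes of the machinery that cuts IL-1β and IL-18 to their active forms were lower. Of 13 measured genes of IL-1 family processing and the inflammasomes, 9 were lower and 1 higher in KO, with a median change of -1.14. Casp1, the protease that performs the cut, averaged 4.94 ± 0.49 in KO and 9.74 ± 0.28 in WT (SD, n = 5 each), a change of -4.80 (limma, adjusted p = 2.24e-08) that is a lower bound in size, since the KO mean was at the floor. The adaptor Pycard, which joins sensor to caspase, changed by -3.67, the sensor Nlrp6 by -3.79 and Nlrp1b, also at the floor in KO, by -1.44 (limma, adjusted p of at most 0.000147). The 1 higher gene was Gsdmd, the pore former that caspases cut (1.12). Casp4 changed by 0.86 and was not called, but it passed as higher without KO replicate 3 (limma, adjusted p = 0.0303). Nlrp3 (0.13) and Nlrp1a (0.09) were not called, with both means of each at the floor. The remaining lower genes were Naip6, Naip5, Aim2, Nlrc4 and Naip2, with changes from -1.59 to -0.51. The Naip2 call ended when any of KO replicates 1, 3 and 5 and WT replicates 2, 3, 4 and 5 was left out. It also ended with adjustment over all probe sets. The Nlrc4 call ended without KO replicate 5 or WT replicate 5, and both calls ended with limma's treat at 1.2-fold.

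Genes that IL-17 or IL-22 are known to switch on in epithelium were split. Of 19 measured, 11 were higher and 4 lower, with a median change of 1.52. The call of Nos2, among the 11, ended when any of KO replicates 1, 2 and 3 and WT replicates 1, 2, 3 and 4 was left out, and Reg3b passed as lower without KO replicate 4 or WT replicate 1. The neutrophil attractant Cxcl5 averaged 11.94 ± 0.30 in KO and 4.57 ± 0.11 in WT (SD, n = 5 each), a change of 7.37 that is a lower bound, since the WT mean was at the floor. Lcn2, which withholds iron from bacteria, changed by 7.66, and Duoxa2, a maturation factor of a hydrogen peroxide producing oxidase, by 4.96. Pigr, which carries IgA across the epithelium, changed by -3.70, and the lower genes also included the antimicrobial lectins Reg3g and Reg3a and the oxidase Nox1. The largest adjusted p of the 4 genes Cxcl5, Lcn2, Duoxa2 and Pigr was 2.70e-07 (limma). Several of these genes are also known NF-kB targets, and no interleukin protein was measured.

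Genes that IL-4 or IL-13 switch on in epithelium or macrophages gave 0 higher and 3 lower of 10, with a median change of -0.08. The Paneth and goblet cell ribonuclease Ang4 averaged 4.77 ± 0.17 in KO and 11.23 ± 0.23 in WT (SD, n = 5 each), a change of -6.45 (limma, adjusted p = 3.08e-11) that is a lower bound in size, since the KO mean was at the floor. The goblet cell genes Spdef (-1.06) and Fcgbp (-1.59) had limma adjusted p of 0.0234 and 0.0335 and lost their calls in several settings that left out 1 array, down to a count of 1 lower gene when KO replicate 1, or WT replicate 2 or 5, was left out. Retnlb, a defence protein of goblet cells, changed by 0.24 with both means at the floor and was not called. The higher transcripts of Il4ra and Il13ra1 stood beside 0 higher genes of this list, in which 4 genes had an unadjusted p under 0.05 (limma). However, 4 of the 10 genes had both means at the floor. Only 2 were above the negative controls' 95th percentile in all arrays, so the count of 0 says little.

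**Figure D5:**
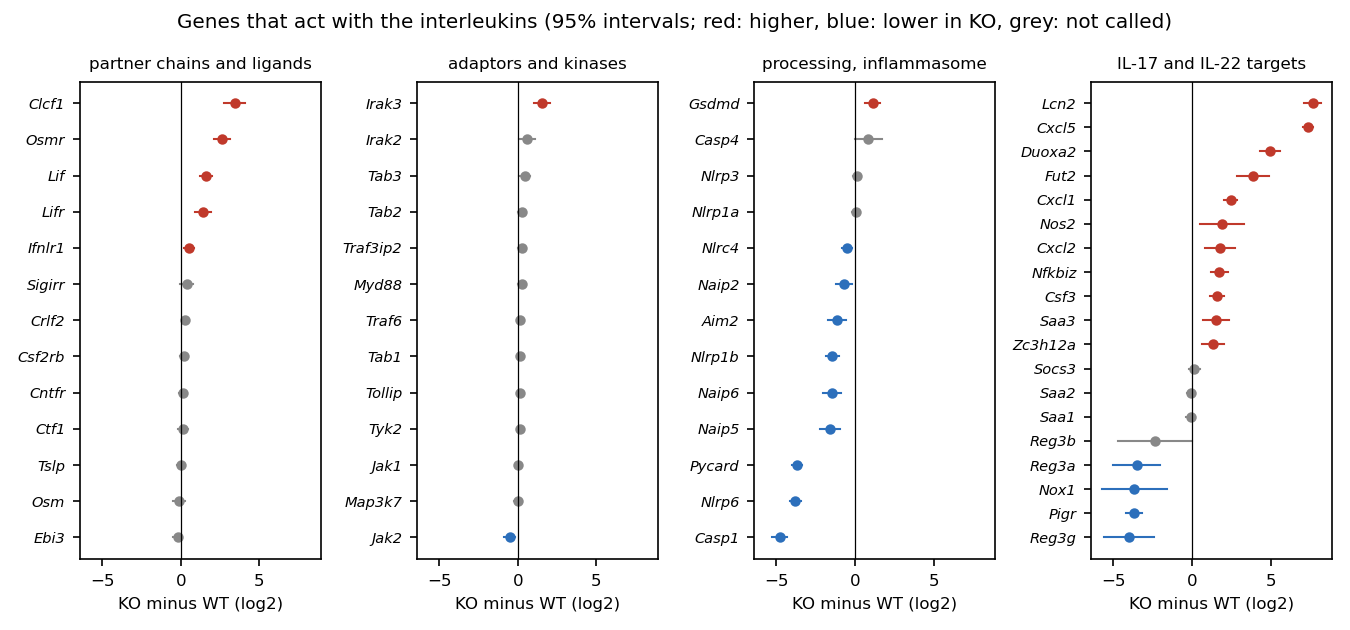
Changes of genes that act with the interleukins, in 4 panels: partner chains and ligands, signal adaptors and kinases, IL-1 processing with the inflammasomes, and targets of IL-17 and IL-22. The x axis is KO minus WT (log2) with 95% intervals; red is higher in KO, blue lower and grey not called, and Casp1, Nlrp6 and Pycard stand farthest left in their panel.

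Markers of cells that make or carry interleukins were read for the same samples. In a bulk sample, a change in the number of cells of a type, in RNA per cell, or in transcript from cells of another type, the epithelium included, cannot be told apart. Of 8 T cell and innate lymphoid markers, 5 B cell markers and 4 endothelial markers, 0 were called (limma). Among them only the endothelial Tie1 had an unadjusted p under 0.05 (limma). Each of these markers was above the negative controls' 95th percentile in 0 arrays, so their signal stayed within the spread of the negative controls. The summed signal of the T cell list (linear scale) was 252 to 318 in KO and 269 to 322 in WT. Of 6 leukocyte markers 2 were lower in KO, Lcp1 (-2.76) and Coro1a (-0.44), with a summed signal of 292 to 416 in KO and 833 to 1422 in WT, while the pan-leukocyte gene Ptprc changed by -0.21 and was not called. Of 10 macrophage and dendritic cell markers, 3 were higher (Cd14 by 4.70, Csf1r by 1.53 and Itgam by 1.56) and 1 lower (Lyz2 by -4.18, at the floor in KO), with a summed signal of 2683 to 3745 in KO and 718 to 1086 in WT. The leukocyte sum in WT was mostly Lcp1 (WT mean 9.64), and the other leukocyte markers averaged at most 6.22 there. The macrophage sum in KO was mostly Cd14 (KO mean 11.40), and the other markers of that list averaged at most 6.87 there. Adgre1, C1qa, C1qb and C1qc, which define tissue macrophages, were not called and stayed below the 95th percentile of the negative controls on average. Of 7 fibroblast markers 1 was lower (Lum, -0.39), of 8 mast cell and granulocyte markers 1 was lower (Kit, -1.60), and of 8 tuft cell markers 1 was higher (Dclk1, 1.29) and 1 lower (Rgs13, -1.28). The Dclk1 call ended when KO replicate 4 or WT replicate 2 was left out, and that of Rgs13, with both means at the floor, when any of KO replicates 2, 3, 4 and 5 and WT replicates 2, 3 and 5 was. Over all genes 15.0% were higher and 11.8% lower. The part of any of these lists in the interleukin results was not tested.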

How the data were processed

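Each of the 5 KO and 5 WT organoid samples had its own 1-colour Affymetrix array. Biotin labelling started from 100 ng of total RNA, per the labels' protocols. The authors deposited log2 levels per probe set; RMA and limma are named for them, per the submitters' processing notes. Tool versions, the genome build and any joint normalization of the arrays were not given in the sources used here. The deposited values were used as they stood. KO and WT were compared with limma 3.58.1 (R 4.3.3) on all 28846 probe sets, with Benjamini-Hochberg adjustment over the 19572 probe sets with 1 gene symbol and a threshold of 0.05. The probe set with the highest mean stood for a gene. The number of arrays limits precision. The script was tested on simulated data.

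Members and lists were chosen with earlier results of these data known. The naming rule took all called members and a further list of members whatever they showed. It also took the 4 members of each pathway list with the smallest p. Other genes (further members, Csf1r, marker genes and further genes of the lists) were named after their values were seen. Summed signals of marker lists add 2 to the power of the log2 level. Alternatives were cyclic loess, centring on the 75th percentile, the dimmest 25% left out, a trended robust variance, array weights, limma's treat at 1.2-fold, adjustment over all probe sets, the mean of a gene's probe sets, a replicate block and each array left out; 2 more were chosen after seeing the data. Promoter windows came from RefSeq (GRCm38.p6); the array's build is unknown, so RefSeq gave only gene order otherwise. Tables and plots used Python 3.11.15 with matplotlib 3.10.9, numpy 2.4.6 and pandas 2.3.3.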

Additional observations from a re-analysis of the deposited data

Results flagged for a closer look

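In 7 of the 152 groups of 5 arrays (76 genes in each genotype), 1 array lay so far from the other 4 that the ratio of its gap to the range of the group passed 0.71; chance flags about 1 in 20 groups. Levels are log2. Il23a in KO replicate 5 was the highest of its group at 8.02, against 6.25 to 6.62 in the other KO arrays (ratio 0.794). Il5ra in KO replicate 2 was 6.02, against 4.24 to 4.58 in the others (0.810). Il7 in KO replicate 3 was 5.74, against 4.91 to 5.15 (0.715), and Il1r2 in KO replicate 2 was lowest at 4.76, against 5.03 to 5.14 (0.713). In WT, Il15 in replicate 4 was 7.16, against 6.09 to 6.39 in the other WT arrays (0.722), Il34 in replicate 2 was 6.68, against 6.34 to 6.41 (0.793), and Il1f5 in replicate 5 was 5.04, against 4.60 to 4.68 (0.808).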

How the results depend on the processing

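The counts of called genes and their changes were recomputed in 21 alternative settings, and no called change of an interleukin gene reversed its direction; counts of separated groups, of 2-fold changes and of promoter matches were not recomputed. The count of interleukin genes higher in KO (20) ran from 14 with limma's treat at 1.2-fold to 22 with array weights, and from 18 to 20 with 1 array left out. The count lower in KO (2) was 1 with treat, with array weights, with the dimmest 25% left out, and with KO replicate 2 and WT replicate 4 both left out, the last a setting chosen after seeing the data; with 1 array left out it ran from 1 to 3. With the dimmest probe sets left out, 54 of the 76 genes were present and 16 were called higher. 15 of the 22 called genes kept their call in every setting where they were present, and 50 of the 54 uncalled genes stayed uncalled. Lost with treat were the calls of Il1f9, Il13ra2, Il23r, Il13ra1, Il1f8, Il3ra and Il1rl2. Without KO replicate 2 and WT replicate 4, Il1f9, Il13ra2, Il23r and Il1rl2 lost theirs, as did Il23r with array weights. Calls were gained by Il15 without KO replicate 5 (limma, adjusted p = 0.0494), Il15ra without KO replicate 1 (0.0433), Il19 without WT replicate 4 (0.00723) and Il1r2 without WT replicate 1 (0.0124), and Il19 and Il1r2 also passed with array weights. The causes were not tested. With the replicate number as a block the counts were 20 and 2; the deviations of same-numbered KO and WT arrays correlated at -0.07 to 0.36, with 2 of 5 pairs over 0.1, so the numbers were not taken as pairs. Of the pathway lists, the block moved adaptors and kinases to 3 higher and the IL-17 and IL-22 targets to 10 higher and 5 lower (Nos2 lost, Reg3b gained). Nfkbia stayed lower in every setting, by -4.26 to -3.97. Signal near the negative controls limits what can be said of the 28 genes with both means there.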

Other observations

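The KO arrays ranked differently from gene to gene. KO replicate 5 was the highest KO array for Il23a, Il24, Il6ra and Il17re and the lowest for Il1a, Il1f6, Il1f9, Il1f8, Il18r1, Il34 and Il13ra2. KO replicate 1 was the highest KO array for Il1f9, Il18r1, Il1r1 and Il6st and the lowest for Il33 (7.29, against 8.48 to 9.14 in the other KO arrays). Il18 was 4.88 in KO replicate 2 and 7.14 in KO replicate 5, whereas Il1a was 8.72 in KO replicate 2 and 5.41 in KO replicate 5. These genes were picked after their values were seen, replicate numbers carry no order, and no test was run on them.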
